A study of Mus musculus with 6 samples.

Results

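The genes described here are 10 genes of hyaluronan and of the proteoglycans that surround cells: Hapln1, Has2, Has3, Hyal1, Hyal2, Cd44, Vcan, Bgn, Prelp and Cspg4. They were chosen by symbol among the 23951 genes of the expression table, and all 10 were found in it. RNA was measured in untreated cultures of 3 mouse melanoma lines with 2 libraries each. B16-F1 is a line of low metastatic potential that came from a cell repository. B16-F1R2 was derived from a lymph node metastasis, and B16-F1R2L from a lung metastasis that itself derived from the lymph node metastasis. The labels name an outside laboratory as the source of both variants, so B16-F1 and the variants differ in source as well, and the line cannot be told apart from its source. The labels leave it unsaid whether the 2 libraries of each line were separate cultures, so the p-values measure the spread between these libraries, which may be technical. Each variant is a single line, and no further line of its kind was compared.

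Hyaluronan is a long sugar chain of the extracellular matrix that carries no core protein. Hyaluronan synthases spin it out at the plasma membrane, hyaluronidases cut it, and cells hold it through receptors such as CD44. Link proteins of the HAPLN family clamp hyaluronan to large chondroitin sulphate proteoglycans (the lecticans, of which versican is one), and small leucine-rich proteoglycans such as biglycan and prolargin bind collagen fibrils. In melanoma this matrix is known for its part in adhesion, migration and lymphatic spread.

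In FPKM (fragments for each kilobase of transcript and each 1000000 mapped reads), which is per length and so allows levels of different genes to be set side by side, Cd44, Hyal2 and Hyal1 were above 1 FPKM in every library. Hapln1 was near 0 in B16-F1 and well above it in both variants, and Prelp was the reverse. Cspg4 stayed below 1 FPKM, Has3 and Vcan below 0.2 FPKM, and Has2 and Bgn were listed at 0 in all 6 libraries. A test was run on the 11379 genes with 1 FPKM or more in 2 or more libraries, which left 5 of the 10 genes tested: Hapln1, Hyal1, Hyal2, Cd44 and Prelp. Hapln1 and Prelp passed this filter only through the lines in which they were high, so that a difference between lines is built into their being tested.

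Lines were compared with limma on log2(FPKM + 0.1), and a gene was called at an adjusted p under 0.05 (Benjamini-Hochberg, two-sided, over all tested genes). Of the 5 tested genes, Hapln1 and Hyal1, 2 genes, were higher in B16-F1R2 than B16-F1, as were 28.2% of all tested genes, and 1 gene, Prelp, was lower, as were 27.2%. Between B16-F1R2L and B16-F1, 2 were higher (Hapln1 and Hyal1) against 29.5% of all tested genes, and 2 were lower (Hyal2 and Prelp) against 27.1%. Between B16-F1R2L and B16-F1R2, 1 was lower (Hapln1) against 10.5% of all tested genes, and 0 were higher against 12.1%. At an unadjusted p under 0.05 limma gave 2 lower and 1 higher, against 2081 lower and 2359 higher among all 11379 tested genes. With so many genes called in the background, the counts alone do not set these genes apart from the rest of the table. The first and second comparison share the B16-F1 libraries. Rescaling each library to a sum of 1000000 took the median difference of all tested genes from 0.02 to 0.12 in B16-F1R2L against B16-F1, where 4075 genes were then higher and 2043 lower in place of 3361 and 3086. Against B16-F1R2 it took the median from 0.02 to 0.13, with 2079 higher and 489 lower in place of 1378 and 1190.

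**Figure D1:**
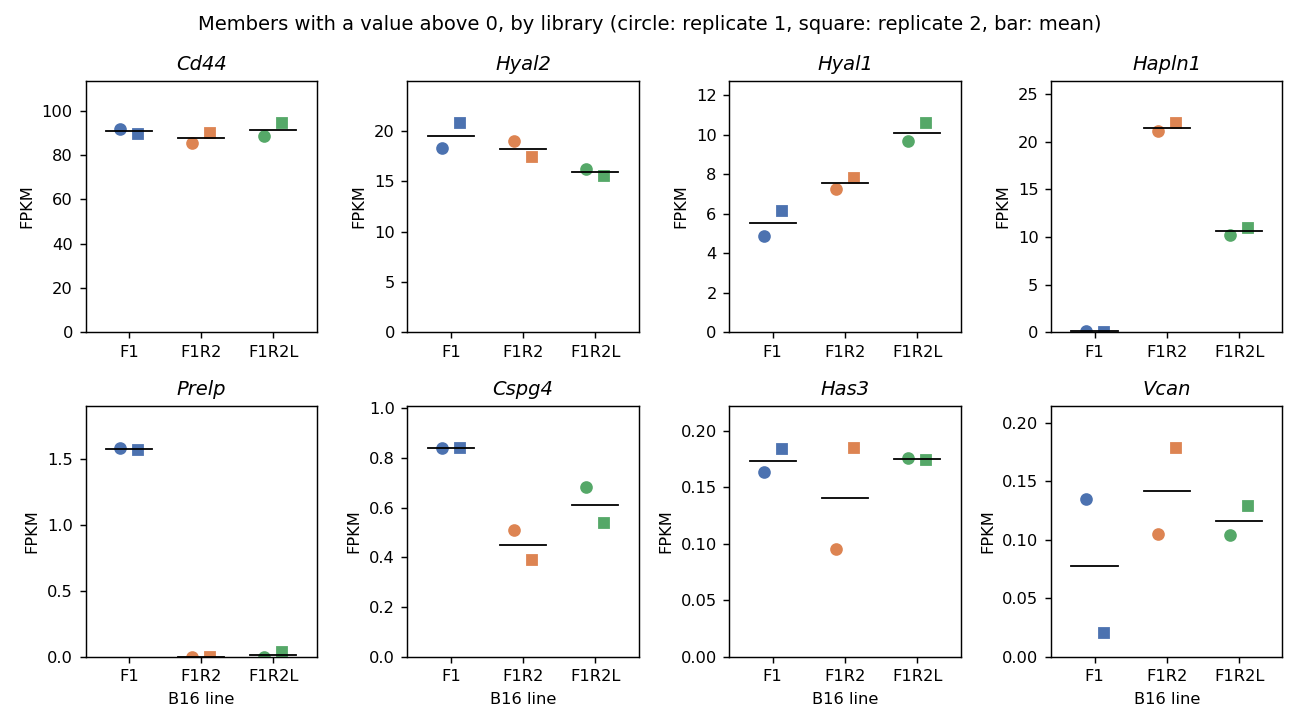
FPKM (vertical axes, linear, from 0) in each of the 6 libraries, by line, for the 8 genes that had a value above 0 in any of them. Points are libraries and bars the mean of 2 libraries; Hapln1 lay at 21.1 and 22 (B16-F1R2), at 10.2 and 11 (B16-F1R2L) and below 0.2 in B16-F1, while Prelp was above 1 FPKM only in B16-F1.

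Promoter sequences are shown for the genes whose levels differed most, Hapln1 and Prelp, for Vcan, the near-silent neighbour of Hapln1, and for Hyal1, which rose in both variants. Each is the 250 bases before the annotated start, from RefSeq on GRCm38.p6, in the direction of the gene. The table holds a promoter for 8 of the 10 genes, and Has2 and Has3 have no entry. The motifs searched, on both strands, were CATGTG, the E-box form that the melanocyte factor MITF is known to bind, and CACGTG, the palindromic E-box, and TATAAA, the TATA box, and CCAAT, the CCAAT box. They do not overlap each other in the matches found. Capitals mark the matches.
Hapln1, chr13:89540386-89540635, plus strand: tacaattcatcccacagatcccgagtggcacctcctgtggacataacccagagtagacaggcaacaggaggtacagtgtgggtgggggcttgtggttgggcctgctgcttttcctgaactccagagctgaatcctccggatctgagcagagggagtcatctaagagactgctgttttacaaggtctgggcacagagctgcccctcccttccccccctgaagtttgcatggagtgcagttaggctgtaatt
Vcan, chr13:89742513-89742762, minus strand: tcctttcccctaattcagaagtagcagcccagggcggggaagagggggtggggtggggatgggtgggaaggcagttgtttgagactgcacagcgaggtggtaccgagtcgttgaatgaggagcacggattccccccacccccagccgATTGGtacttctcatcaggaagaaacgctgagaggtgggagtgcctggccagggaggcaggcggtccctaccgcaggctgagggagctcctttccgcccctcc
Prelp, chr1:133921402-133921651, minus strand: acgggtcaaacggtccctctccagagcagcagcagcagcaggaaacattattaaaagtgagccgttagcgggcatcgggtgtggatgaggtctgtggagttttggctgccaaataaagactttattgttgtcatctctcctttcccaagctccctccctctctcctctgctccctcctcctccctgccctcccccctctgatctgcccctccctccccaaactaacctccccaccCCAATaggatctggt
Hyal1, chr9:107576700-107576949, plus strand: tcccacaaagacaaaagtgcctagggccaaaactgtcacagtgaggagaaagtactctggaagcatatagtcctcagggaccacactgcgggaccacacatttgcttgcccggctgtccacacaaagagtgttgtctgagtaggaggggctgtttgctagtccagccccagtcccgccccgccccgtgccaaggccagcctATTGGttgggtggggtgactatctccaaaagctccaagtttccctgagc
Of the motifs searched, the CCAAT box was found once each in Prelp, Vcan and Hyal1, where it began 15, 103 and 49 bases before the start (in Vcan and Hyal1 on the opposite strand, as ATTGG). None of the letters searched occurred in the Hapln1 window. Of all 32851 promoters of the same length, 33.8% held the CCAAT box, 12.3% the letters CATGTG, 6.02% the palindromic E-box and 12.4% the TATA box. The Hapln1 window held 2 CG dinucleotides, fewer than the 5 of Hyal1 and Prelp and the 10 of Vcan, and the median window held 6. A match describes letters and is not a binding site.

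Hapln1 encodes hyaluronan and proteoglycan link protein 1, which stabilizes the bond between hyaluronan and lecticans. On NCBIM37, the assembly of mm9, the gene spans chromosome 13 from 89680241 to 89751437 on the plus strand, with 1 annotated transcript of 5055 bases in 5 exons. None of the 5006 stretches of 50 bases in its transcript occurs letter for letter in a protein-coding transcript of another gene. Noncoding transcripts and the rest of the genome were not searched. Its FPKM stood at 0.143 and 0.0616 in B16-F1, at 21.1 and 22 in B16-F1R2 and at 10.2 and 11 in B16-F1R2L. The 3 lines did not overlap, and the order was B16-F1R2, then B16-F1R2L, then B16-F1. Among the 10 genes it moved from the seventh place by mean level in B16-F1 to the second in B16-F1R2, above Hyal2. In B16-F1R2L it stood below Hyal2, and its libraries overlapped those of Hyal1, the next in order. Of the low genes, Hapln1 and Vcan had overlapping libraries in B16-F1, and Vcan and Has3 in B16-F1R2.

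Against B16-F1 (0.102 ± 0.0575 FPKM, SD, n = 2), the mean of B16-F1R2 (21.5 ± 0.645, n = 2) was 211 times as high and that of B16-F1R2L (10.6 ± 0.611, n = 2) 104 times as high. At the estimated depth 1 read of Hapln1 is worth 0.0134 to 0.0153 FPKM, so the B16-F1 values stand on few reads and these ratios are rough. The difference in log2(FPKM + 0.1) between B16-F1R2 and B16-F1 was 6.77 (standard error 0.19, limma adjusted p = 2.3e-06), and between B16-F1R2L and B16-F1 it was 5.75 (limma adjusted p = 3.7e-06). Over the alternatives the first ranged from 4.36 to 7.69 and the second from 3.39 to 6.66, lowest with a pseudocount of 1 and highest with 0.01. Between the variants, Hapln1 fell by 1.02 on the log2 scale in B16-F1R2L (standard error 0.19, limma adjusted p = 0.017), to 0.491 of the linear mean in B16-F1R2. That last call was lost without either B16-F1R2 library or either B16-F1R2L library, with adjusted p between 0.065 and 0.087 and a difference between -1.08 and -0.96, and also with a pseudocount of 0.01 (adjusted p = 0.072) and without the filter (adjusted p = 0.14).

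The plot of differences between lines sets Hapln1 beside the other tested genes.

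**Figure D2:**
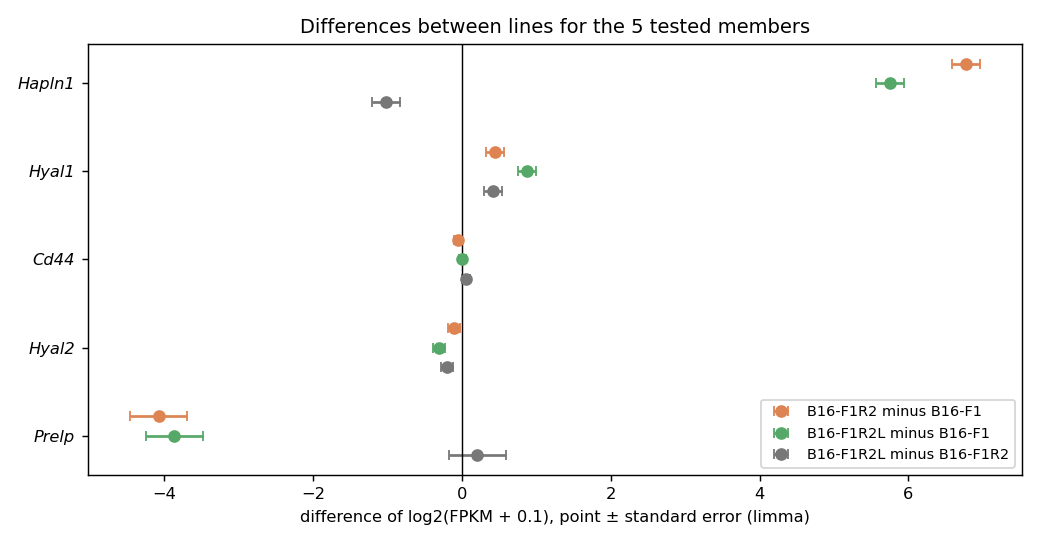
Differences of log2(FPKM + 0.1) between lines (horizontal axis) for the 5 tested genes, with limma standard errors as bars and 1 colour for each of the 3 comparisons. Hapln1 stood at 6.77 and 5.75 and Prelp at -4.07 and -3.86 against B16-F1, while Hyal1, Hyal2 and Cd44 lay between -0.30 and 0.87 in all 3 comparisons.

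The closest neighbour of Hapln1 is Vcan, which encodes versican, the lectican that link protein 1 is known to lock onto hyaluronan. Vcan lies on the minus strand of the same chromosome from 89794915 to 89882117, 43477 bases from Hapln1 with no annotated gene between them. Its FPKM stood at 0.135 and 0.0207 in B16-F1, at 0.105 and 0.179 in B16-F1R2 and at 0.104 and 0.129 in B16-F1R2L. All lines overlapped. Vcan did not reach the filter, and with all genes of the table tested its difference between B16-F1R2 and B16-F1 was 0.51 (standard error 0.401, limma adjusted p = 0.57). A difference of Vcan was not detectable at this depth.

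The tested genes next to this locus differed by at most 1.13 on the log2 scale. Edil3, an integrin-binding matrix protein gene upstream of Hapln1, stood at 1.92 and 1.55 FPKM in B16-F1, at 3.22 and 3.83 in B16-F1R2 and at 3.62 and 4.18 in B16-F1R2L. It rose by a log2 difference of 0.99 in B16-F1R2 (limma adjusted p = 0.0021) and 1.13 in B16-F1R2L (limma adjusted p = 0.0012). Xrcc4, a gene of DNA end joining beyond Vcan, rose by 0.59 in B16-F1R2 (limma adjusted p = 0.0014) and 0.56 in B16-F1R2L (limma adjusted p = 0.0017). Cox7c and Rasa1 on the near side and Tmem167 on the far side did not pass the test against B16-F1, with adjusted p between 0.051 and 0.47. These neighbours were named for their position.

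Each link protein gene of the mouse sits beside a lectican gene, and the 4 pairs were set side by side. Hapln4, a link protein of the nervous system, stood at 3.96 and 3.92 FPKM in B16-F1, at 8.41 and 9.29 in B16-F1R2 and at 11.8 and 11.5 in B16-F1R2L. It rose by 1.15 in B16-F1R2 (standard error 0.0754, limma adjusted p = 5.7e-05) and by 1.54 in B16-F1R2L (limma adjusted p = 1.7e-05). Between the variants Hapln4 moved the other way from Hapln1 and was higher in B16-F1R2L by 0.39 (limma adjusted p = 0.018). That call was lost without B16-F1R2 replicate 1 (0.32, adjusted p = 0.09) and without B16-F1R2L replicate 1 or 2 (0.38 and 0.41, adjusted p = 0.06 and 0.077), and also without the filter (adjusted p = 0.074). Ncan, 2222 bases away, was at most 0.0207 FPKM in any library. Hapln2 was listed at 0 in all libraries while Bcan, 21393 bases away, ranged from 1.46 to 1.67 FPKM with no call in any comparison. Hapln3 and Acan, 40 bases apart, were both listed at 0 throughout.

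**Figure D3:**
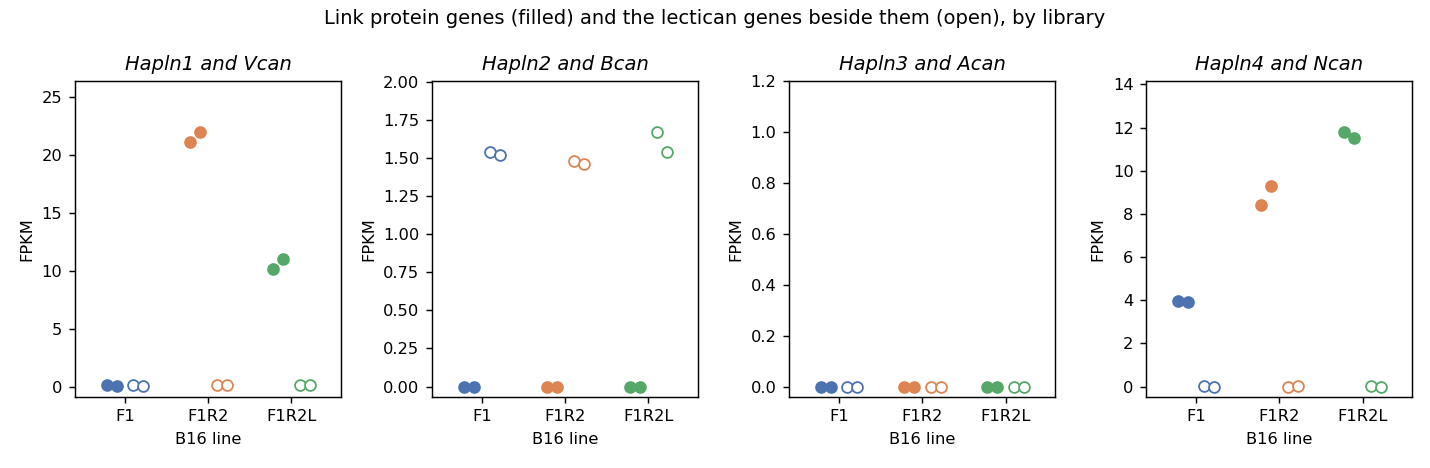
FPKM (vertical axes, linear) of the 4 link protein genes (filled points) and the lectican genes beside them (open points) in each of the 6 libraries, by line. Hapln1 and Hapln4 were higher in both variants than in B16-F1, while Vcan stayed below 0.2 FPKM and Ncan at or below 0.0207 FPKM.

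The synthases were close to silent. Has2, the synthase of most mesenchymal cells, lies on chromosome 15 from 56497182 to 56526094 and was listed at 0 in all libraries. Actb, Gapdh, Ppia, Hprt and Tbp, which every cell uses, were at 10.9 FPKM or more in every library. At such levels they do not show whether a rare RNA would be detected. Has3, on chromosome 8 from 109394142 to 109406802, stood at 0.163 and 0.184 FPKM in B16-F1, at 0.0956 and 0.185 in B16-F1R2 and at 0.176 and 0.174 in B16-F1R2L. Its lines overlapped in every comparison, and with all genes tested no difference was larger than 0.22 in size (limma adjusted p between 0.72 and 1). Has1, the remaining synthase, was also listed at 0 in all libraries. At 1 read worth 0.0114 to 0.0131 FPKM of Has3, these values stand on a small number of reads. FPKM at this level do not say whether the cells make hyaluronan.

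The genes that make the sugar precursors all reached the filter. Of 8 genes of hyaluronan synthesis besides Has2 and Has3 (Has1 included), 7 were tested, and in B16-F1R2 3 were higher and 3 lower (42.9% each way, against 28.2% and 27.2% of all tested genes, with a median log2 difference of -0.21 against 0.00). For B16-F1R2L the counts were 2 higher and 2 lower (28.6% each way, against 29.5% and 27.1%). Gfpt2, an enzyme at the entry of the hexosamine pathway, stood at 1.59 and 1.65 FPKM in B16-F1, at 3.84 and 4.11 in B16-F1R2 and at 3.91 and 3.53 in B16-F1R2L. It rose by 1.24 in B16-F1R2 (limma adjusted p = 0.00018) and by 1.15 in B16-F1R2L. Its paralog Gfpt1, the more abundant at 32.4 and 33.6 FPKM in B16-F1, fell by 0.45 on the log2 scale in B16-F1R2 (23.5 and 24.9 FPKM, limma adjusted p = 0.0017). Gnpnat1, which acetylates glucosamine phosphate in the same pathway, rose from 11.9 and 11.7 FPKM to 19.2 and 20.6 in B16-F1R2 (log2 difference 0.75, limma adjusted p = 0.0002) and stood at 18.8 and 20.7 in B16-F1R2L.

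The hyaluronidase genes Hyal1 and Hyal2 moved in opposite directions in B16-F1R2L. HYAL2 is known to cut long hyaluronan at the cell surface, and HYAL1 to cut the fragments in lysosomes. Hyal1 stood at 4.88 and 6.16 FPKM in B16-F1, at 7.26 and 7.81 in B16-F1R2 and at 9.66 and 10.6 in B16-F1R2L. The 3 lines did not overlap and stood in the order B16-F1, B16-F1R2, B16-F1R2L. Hyal1 rose by 0.45 in B16-F1R2 (standard error 0.121, limma adjusted p = 0.02) and by 0.87 in B16-F1R2L (limma adjusted p = 0.0013). The first of these calls was lost without B16-F1 replicate 1 (difference 0.29, adjusted p = 0.084) and without B16-F1R2 replicate 1 or 2 (0.50 and 0.40, adjusted p = 0.054 and 0.098), and also without the filter (adjusted p = 0.13). The difference between the variants, 0.42, did not pass the threshold (limma adjusted p = 0.052, 0.028 to 0.25 over the alternatives).

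Hyal2 stood at 18.3 and 20.8 FPKM in B16-F1, at 19.0 and 17.4 in B16-F1R2 and at 16.2 and 15.5 in B16-F1R2L. B16-F1 and B16-F1R2 overlapped (log2 difference -0.10, limma adjusted p = 0.34), while both B16-F1R2L libraries were the lowest. Against B16-F1, Hyal2 fell by 0.30 on the log2 scale in B16-F1R2L (standard error 0.0798, limma adjusted p = 0.02). This call was lost on rescaling the libraries to the same sum (-0.19, adjusted p = 0.065) and without B16-F1 replicate 2 (-0.20, adjusted p = 0.11) or B16-F1R2L replicate 2 (-0.26, adjusted p = 0.09), and also without the filter (adjusted p = 0.11). The ratio of Hyal1 to Hyal2 was at 0.267 and 0.297 in B16-F1 libraries, at 0.381 and 0.448 in those of B16-F1R2 and at 0.596 and 0.684 in those of B16-F1R2L. In each line Hyal2 remained the more abundant of the pair.

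Both genes lie on the plus strand of chromosome 9, Hyal2 from 107471448 to 107475107 and Hyal1 from 107479258 to 107485174, with 4150 bases and no gene between them. The values of Hyal1 are less certain, because its exons overlap those of Hyal3 and Nat6 on the same strand. Also, 1947 of its 3894 stretches of 50 bases occur in protein-coding transcripts of other genes, 88 genes in all. Nat6, an acetyltransferase gene, stood at 12.5 and 11.1 FPKM in B16-F1, at 11 and 14.1 in B16-F1R2 and at 15.4 and 13.3 in B16-F1R2L. Hyal3 had 0.273 and 0.237, 0.0867 and 0.25, and 0.354 and 0.438 FPKM in the same order. Like Hyal1, both genes were higher in both B16-F1R2L libraries than in both B16-F1 libraries, while B16-F1R2 and B16-F1 overlapped. Whether reads of these genes add to the values of Hyal1 was not tested. No stretch of Hyal2 was shared with a protein-coding transcript of another gene.

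Among the other breakdown genes the test gave both directions. Of 7 such genes, 3 were tested, and 1 rose and 2 fell in B16-F1R2, and again 1 and 2 in B16-F1R2L. The background over all tested genes was 28.2% higher and 27.2% lower for the first variant, and 29.5% higher and 27.1% lower for the second. Tmem2, a transmembrane hyaluronidase now called Cemip2, rose from 2.14 and 2.29 FPKM to 3.73 and 4.77 in B16-F1R2 (log2 difference 0.90, limma adjusted p = 0.0018) and 3.87 and 3.78 in B16-F1R2L (0.76, limma adjusted p = 0.0036). Hexa encodes a lysosomal hexosaminidase, which trims the fragments left by hyaluronidases. Hexa fell from 263 and 274 FPKM to 156 and 143 in B16-F1R2, by 0.85 on the log2 scale (limma adjusted p = 5.5e-05), and stood at 174 and 178 in B16-F1R2L. The other gene to fall was Gusb, the lysosomal beta-glucuronidase, at 107 and 111 FPKM in B16-F1, at 89.6 and 91.3 in B16-F1R2 and at 86.4 and 83.0 in B16-F1R2L. It fell by 0.27 on the log2 scale in B16-F1R2 (limma adjusted p = 0.0023) and by 0.36 in B16-F1R2L (limma adjusted p = 0.00062).

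Cd44, the main hyaluronan receptor of many cells, was the most abundant of the 10 genes in each line, above at least 95.3% of the genes of the table. It lies on the minus strand of chromosome 2 from 102651298 to 102741822. Its FPKM stood at 92.0 and 89.8 in B16-F1, at 85.6 and 90.0 in B16-F1R2 and at 88.7 and 94.6 in B16-F1R2L. All 3 lines overlapped, and the log2 differences were -0.05, 0.01 and 0.06 with a standard error of 0.0501 (limma adjusted p between 0.40 and 0.86). The sign of the 0.01 turned under another scaling, so no direction is given. The table gives 1 value for the 14 annotated transcripts, and splice forms of Cd44 were not measured here.

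Of 14 other receptor and binding protein genes, 3 were tested and 2 were higher in both variants (against 28.2% of all tested genes in B16-F1R2 and 29.5% in B16-F1R2L): Hapln4, described above, and Hmmr. Hmmr, the receptor for hyaluronan-mediated motility, also known for a role at the mitotic spindle, stood at 23.4 and 23.3 FPKM in B16-F1, at 28.7 and 29.1 in B16-F1R2 and at 28.0 and 28.5 in B16-F1R2L. It rose by 0.31 in B16-F1R2 (limma adjusted p = 0.0014) and by 0.27 in B16-F1R2L (limma adjusted p = 0.0023). Lyve1, the hyaluronan receptor of lymphatic vessels, was listed at 0 in all libraries.

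Prelp encodes prolargin, a small leucine-rich proteoglycan of connective tissue that is known to anchor basement membranes. The gene lies on the minus strand of chromosome 1 from 135806881 to 135817991, between Optc and Fmod of the same family. Its FPKM were 1.59 and 1.57 in B16-F1. The table lists it at 0 in B16-F1R2 (both libraries) and in 1 B16-F1R2L library, and at 0.0331 in the other, where 1 read is worth 0.0187 to 0.0214 FPKM. Both variants lay below both B16-F1 libraries. The fitted difference was -4.07 in B16-F1R2 (standard error 0.383, limma adjusted p = 0.00025) and -3.86 in B16-F1R2L (limma adjusted p = 0.00031). Its size is set by the pseudocount, with values from -7.31 to -1.37 in B16-F1R2 over the alternatives, and no fold is given against values of 0. An RNA on the opposite strand, Gm15851, overlaps its exons. The library kit kept strand, but whether the counting used it is not given in the sources used here.

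The genes beside Prelp were low. Optc ranged from 0.094 to 0.234 FPKM and Fmod was listed at 0 throughout. Beyond Fmod, Btg2, an antiproliferative gene, stood at 0.947 and 1.16 FPKM in B16-F1, at 0.391 and 0.376 in B16-F1R2 and at 0.168 and 0.198 in B16-F1R2L, and was too low to be tested.

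Bgn, the biglycan gene on the X chromosome from 70728941 to 70741272, was listed at 0 in all libraries. Of 14 other small leucine-rich proteoglycan genes, 2 were tested, none was called in B16-F1R2 (0 of 2, also at an unadjusted p under 0.05 in limma) and 1 was lower in B16-F1R2L, where 27.1% of all tested genes were lower. The background in B16-F1R2 was 28.2% higher and 27.2% lower. At an unadjusted p under 0.05 limma gave 3491 higher and 3417 lower there among all 11379 tested genes. The gene lower in B16-F1R2L was Tsku, named here after its values were seen, whose B16-F1 libraries had 6.20 and 6.91 FPKM and whose B16-F1R2L libraries had 5.18 and 5.53 (log2 difference -0.28, limma adjusted p = 0.035). Dcn and Lum, the most common members in fibroblasts, were listed at 0 in every library.

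Cspg4 encodes the membrane proteoglycan NG2, known in human melanoma as a tumour antigen. It lies on the plus strand of chromosome 9 from 56712911 to 56747677. Its FPKM stood at 0.842 in both B16-F1 libraries, at 0.512 and 0.391 in B16-F1R2 and at 0.684 and 0.538 in B16-F1R2L. The lines did not overlap, with B16-F1 the highest and B16-F1R2 the lowest. The gene did not reach the filter, and with all genes of the table tested the log2 difference was -0.78 in B16-F1R2 (standard error 0.219, limma adjusted p = 0.1) and -0.41 in B16-F1R2L (limma adjusted p = 0.34), so neither was called. Of 6 other chondroitin sulphate proteoglycan genes, Bcan alone was tested.

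Proteoglycans that carry heparan sulphate ranged from genes listed at 0 to Gpc1 at 66.5 FPKM or more. Of 17 such genes, 8 were tested, with 3 higher and 4 lower in B16-F1R2 (37.5% and 50%, against 28.2% and 27.2% of all tested genes). For B16-F1R2L the counts were 3 higher and 2 lower (37.5% and 25%, against 29.5% and 27.1%). Gpc1, a glypican tethered to the membrane by a lipid anchor, fell from 113 and 114 FPKM to 69.3 and 66.5 in B16-F1R2 (log2 difference -0.74, limma adjusted p = 7.5e-05) and 79.9 and 73.7 in B16-F1R2L (-0.56). Sdc4, a syndecan of focal adhesions, rose from 18.7 and 20.9 FPKM to 35.5 and 35.9 in B16-F1R2 (0.85, limma adjusted p = 8.3e-05) and 36.0 and 35.8 in B16-F1R2L. Hspg2, which encodes the basement membrane proteoglycan perlecan, rose from 15.1 and 14.9 FPKM to 23.7 and 27.3 in B16-F1R2 (0.76, limma adjusted p = 0.0013) and 25.8 and 21.4 in B16-F1R2L. The members of this class thus differed in direction.

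**Figure D4:**
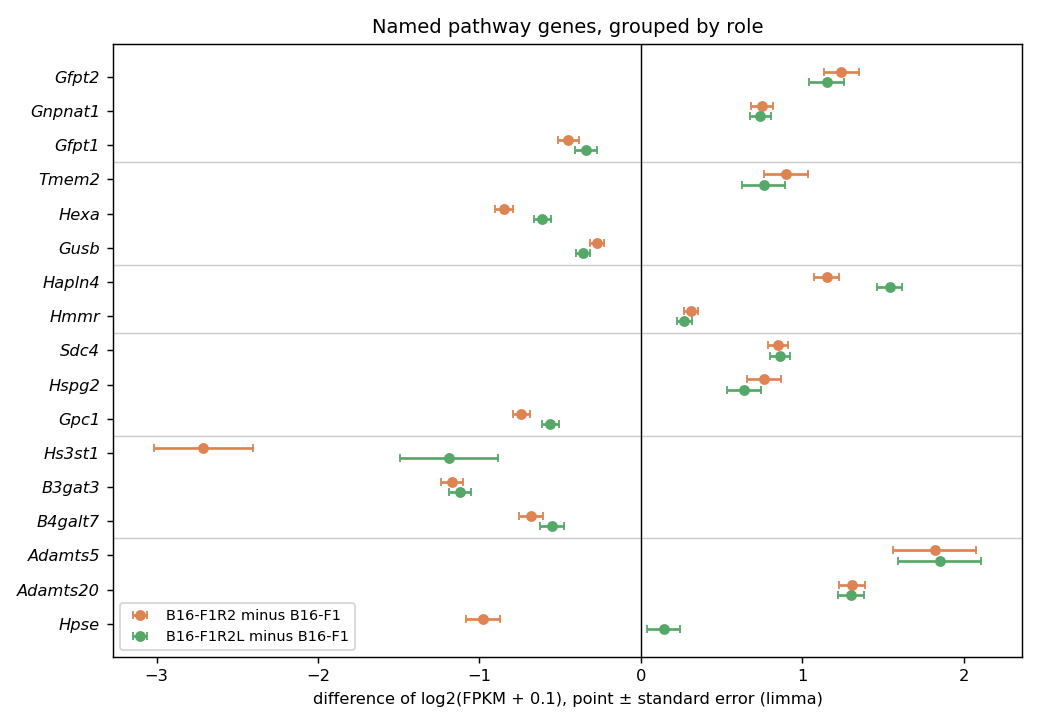
Differences of log2(FPKM + 0.1) against B16-F1 (horizontal axis) for the 17 named pathway genes in B16-F1R2 (orange) and B16-F1R2L (green), with limma standard errors as bars and lines between roles. Hs3st1 had the largest difference in B16-F1R2 at -2.71, and Hpse stood at -0.98 in B16-F1R2 and at 0.14 in B16-F1R2L.

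The enzymes that build and sulphate the chains gave the largest group. Of 40 such genes, 28 were tested, and 4 were higher and 14 lower in B16-F1R2, which is 14.3% and 50% against 28.2% and 27.2% of all tested genes, with a median log2 difference of -0.31. In B16-F1R2L, 4 were higher and 12 lower (14.3% and 42.9%, against 29.5% and 27.1% of all tested genes, median -0.13). Hs3st1, a heparan sulphate 3-O-sulphotransferase, stood at 5.31 and 4.98 FPKM in B16-F1, at 0.716 and 0.688 in B16-F1R2 and at 1.52 and 3.16 in B16-F1R2L. It fell by 2.71 on the log2 scale in B16-F1R2 (standard error 0.305, limma adjusted p = 0.00054) and by 1.19 in B16-F1R2L (limma adjusted p = 0.016), and its B16-F1R2L libraries stood further apart than those of the other lines. That second difference of Hs3st1 was -0.69 without B16-F1R2L replicate 1 and -1.69 without replicate 2, and its call was lost without B16-F1 replicate 1 or 2 (adjusted p = 0.076 and 0.063) and without the filter (0.13). B3gat3 and B4galt7 encode enzymes of the linker sugars that join the chains to core proteins. B3gat3 fell from 21.2 and 21.5 FPKM to 9.39 and 9.47 in B16-F1R2 (-1.17, limma adjusted p = 3.4e-05) and 10.3 and 9.30 in B16-F1R2L. B4galt7 fell from 27.0 and 26.8 FPKM to 17.6 and 16 (-0.68, limma adjusted p = 0.00049) and 19.4 and 17.3.

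Of 11 genes that cleave proteoglycans or edit heparan sulphate, 6 were tested, with 2 higher and 2 lower in B16-F1R2 (33.3% each way, against 28.2% and 27.2% of all tested genes). For B16-F1R2L they were 2 higher and 3 lower (33.3% and 50%, against 29.5% and 27.1%). Adamts5, an aggrecanase, rose from 0.291 and 0.219 FPKM to 0.937 and 1.41 in B16-F1R2 (1.82, limma adjusted p = 0.0014) and 1.13 and 1.21 in B16-F1R2L (1.85). It reached the filter only through the variants, where it was high, so that a difference is built into its being tested. After quantile normalization its differences were 0.43 and 0.09 and it was not called (adjusted p = 0.30 and 0.83). Adamts20, a protease known for its part in melanoblast survival and versican cleavage, rose from 2.76 and 2.96 FPKM to 7.40 and 7.03 in B16-F1R2 (1.31, limma adjusted p = 4.5e-05) and 7.22 and 7.09 in B16-F1R2L. Hpse, the heparanase gene, stood at 12.7 FPKM in both B16-F1 libraries, at 7.16 and 5.72 in B16-F1R2 and at 14.0 and 14.1 in B16-F1R2L. It fell by 0.98 on the log2 scale in B16-F1R2 (limma adjusted p = 0.00043) and between the variants was higher in B16-F1R2L by 1.12 (limma adjusted p = 0.0031).

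**Figure D5:**
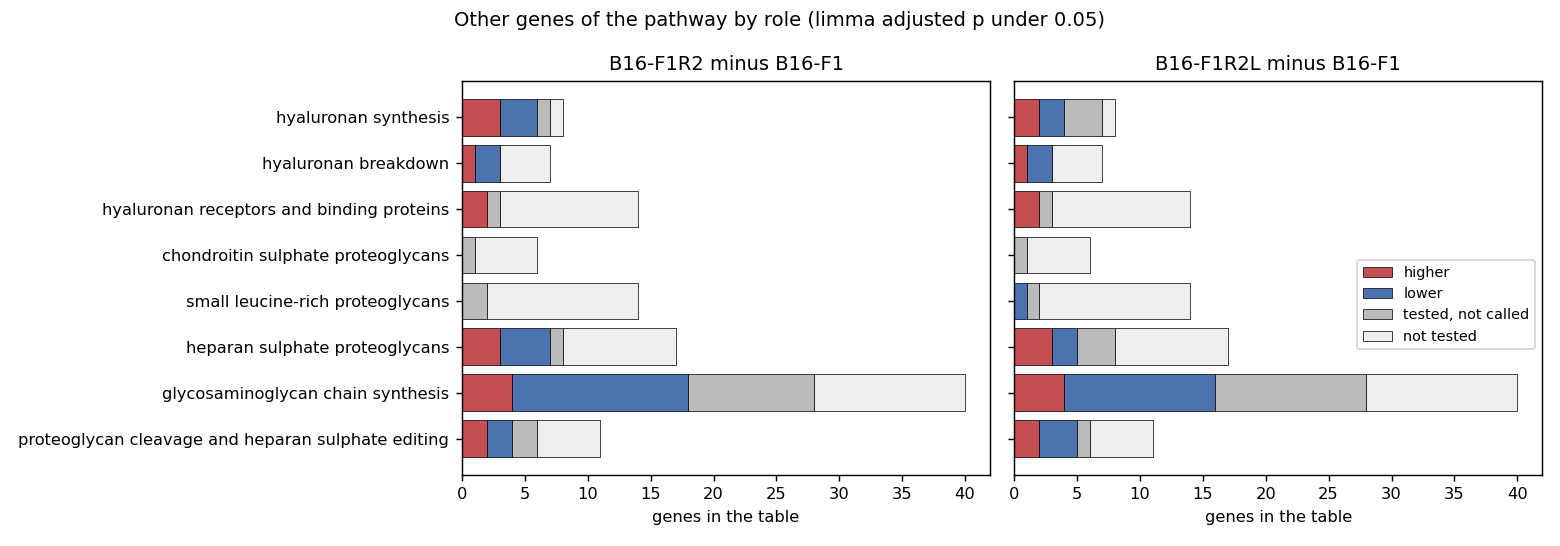
Number of other pathway genes in the table (horizontal axis) for each of 8 roles in B16-F1R2 and B16-F1R2L against B16-F1, divided into higher, lower, tested but not called, and not tested. In glycosaminoglycan chain synthesis 14 of 28 tested genes were lower in B16-F1R2, against 27.2% of all tested genes.

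Over all 117 other genes of these lists, 58 were tested, with 15 higher and 25 lower in B16-F1R2 (25.9% and 43.1%, against 28.2% and 27.2% of all tested genes, median log2 difference -0.15). In B16-F1R2L 14 were higher and 22 lower (24.1% and 37.9%, against 29.5% and 27.1%, median -0.07). On rescaling these were 16 and 17, beside 4075 and 2043 of all tested genes. After quantile normalization they were 12 and 31, beside 2857 and 3591. Between the variants 10 were higher and 6 lower in B16-F1R2L (17.2% and 10.3%, against 12.1% and 10.5%, median 0.05, against 0.02 for all tested genes). With any 1 of the 6 libraries left out fewer were called each way, and so were fewer of all tested genes.

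The genes whose pattern over the 6 libraries was most like that of Hapln1 were Il34, Sugt1, Nxn, Cenpv and 5730559C18Rik, with Pearson r from 0.9980 to 0.9991. Il34, which encodes a cytokine, stood at 0.0533 and 0 FPKM in B16-F1, at 2.96 and 3.46 in B16-F1R2 and at 1.94 and 2.16 in B16-F1R2L. The genes most like Prelp were Rarb, Sdcbp, Laptm4a, Atp6v0d1 and Rap2a, with r from 0.9993 to 0.9997. Sdcbp encodes syntenin, an adaptor that binds the tails of syndecans, and had 315 and 318 FPKM in B16-F1 against 170 to 181 in the other 4 libraries. With 3 lines of 2 libraries, such an r rests on the differences between lines: 167 genes had an r over 0.99 with Hapln1 and 188 with Prelp.

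The lines were checked against cell type markers. All 7 melanocyte markers were above 1 FPKM in every library, and their summed level was 14970 to 15007 FPKM in B16-F1, 7909 to 8125 in B16-F1R2 and 8924 to 8933 in B16-F1R2L, so that the sum moved with the lines in the direction opposite to Hapln1. By the test 6 of the 7 were lower in both variants than in B16-F1, against 27.2% (B16-F1R2) and 27.1% (B16-F1R2L) of all tested genes. The exception was Mitf, the melanocyte master regulator, named after its values were seen, which was not called in B16-F1R2 (log2 difference -0.15, limma adjusted p = 0.11) and was higher in B16-F1R2L (0.40, limma adjusted p = 0.0032). Summed fibroblast markers were 0.735 to 0.881 FPKM in B16-F1, 1.21 to 1.29 in B16-F1R2 and 1.86 to 2.31 in B16-F1R2L, with Dcn, Lum and Thy1 at 0. Col1a2, a collagen gene and the only marker of this list that was tested, had 0.635 and 0.742 FPKM (B16-F1), 1.13 and 1.04 (B16-F1R2) and 1.77 and 2.17 (B16-F1R2L). It reached the filter only through the variants, where it was high, so that a difference from B16-F1 is built into its being tested. Between the variants Col1a2 was higher in B16-F1R2L by 0.80 (limma adjusted p = 0.028). Of the 6 endothelial and lymphatic markers, Cdh5, Kdr, Tek and Lyve1 were at 0 throughout, while Pecam1 was at 0 in B16-F1 and 0.752 to 1.26 FPKM in the variants. Prox1 went the other way. The B16-F1 libraries had 1.66 and 1.63 FPKM of Prox1, those of B16-F1R2 0.79 and 0.969 (-0.84, limma adjusted p = 0.0057) and those of B16-F1R2L 1.16 and 1.12 (-0.49, limma adjusted p = 0.043). The sum of the 6 markers ranged from 1.55 to 2.38 FPKM. Leukocyte markers summed to 1.01 to 2.67 FPKM, nearly all from Cd68, with Ptprc at 0. Keratinocyte markers summed to at most 0.06 FPKM and lung epithelium markers to at most 0.905. The part of these shifts in the differences above was not tested. FPKM give the share of a gene in the RNA of a culture, so fewer cells that express it and less RNA per cell cannot be told apart.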

How the data were processed

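RNA was measured in 6 libraries of 3 mouse melanoma lines, grouped by the cell line label. Polyadenylated RNA was sequenced as single-end reads with a strand-keeping kit and, per the study's methods, aligned by the authors with TopHat 2.0.10 (Bowtie 1.0.0) to mm9 with multiple hits per read allowed. The submitters' processing notes also name Cuffnorm and DESeq2. The authors deposited a single table of FPKM, with replicates kept apart; the annotation behind it is not given in the sources used here. FPKM are not counts, so a count test was not run. Depth was estimated from the lowest FPKM of genes with a single transcript at 12900000 to 14800000 reads a library, a rough value. FPKM summed to 596657 to 672794, and libraries of the same line differed by a median of 0.0669 to 0.0951 on the log2 scale.

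From the FPKM, log2(FPKM + 0.1) was taken for genes that had 1 FPKM or more in 2 or more libraries and fitted with limma 3.58.1 (R 4.3.3; empirical Bayes with a trend; all 6 libraries; no block). On this scale the fold changes of low genes come out too small. Positions came from the NCBIM37 annotation by symbol, and promoters from RefSeq. The fit was also run on simulated data, with few genes changed, in B16-F1R2 only and by more than many differences reported here. That run does not bear on the calls given. Tables and plots were made in Python 3.11.15 with pandas 2.3.3 and matplotlib 3.10.9. The members and the lists were chosen with earlier results of these data known. From the lists, 1 gene is not reported here and was left out of their counts. Named were all members, of each list at most 3 other genes past the threshold between B16-F1R2 and B16-F1 without overlap, by size of difference, and the 5 genes most like Hapln1 and Prelp; others were chosen after their values were seen or for their position. Alternatives were pseudocounts of 1 and 0.01, no filter, a filter of 5 FPKM, 3 other scalings, no trend, only the 4 libraries compared, a replicate block and each library left out.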

Additional observations from a re-analysis of the deposited data

Results flagged for a closer look

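For 5 of the tested members and of the pathway genes named by the rule, the effects of the 2 variants against B16-F1 differed from each other, tested as the contrast between B16-F1R2L and B16-F1R2 in limma with adjustment over all tested genes. The rule named pathway genes by the size of their difference between B16-F1R2 and B16-F1, and this contrast uses the same B16-F1R2 libraries. A move back toward B16-F1 can in part come from that choice, which was not tested. Hapln1 differed by -1.02 (adjusted p = 0.017), lower in both B16-F1R2L libraries than in both B16-F1R2 libraries, a call lost without any 1 of those 4 libraries (adjusted p = 0.065 to 0.087), with a pseudocount of 0.01 (0.072) and without the filter (0.14). Hpse differed by 1.12 (adjusted p = 0.0031), so that the fall seen in B16-F1R2 was absent from the B16-F1R2L libraries. Hs3st1 differed by 1.52 (adjusted p = 0.02), with B16-F1R2L libraries of 1.52 and 3.16 FPKM that were far apart. The difference of Hs3st1 was 2.02 without B16-F1R2L replicate 1 and 1.01 without replicate 2. Without B16-F1R2 replicate 1 or 2 this was 1.54 and 1.49 and not called (adjusted p = 0.094 and 0.079), nor was it called without the filter (0.17). Hapln4 differed by 0.39 (adjusted p = 0.018; lost with any of 3 libraries left out, adjusted p = 0.06 to 0.09, and without the filter, 0.074) and Hexa by 0.23 (adjusted p = 0.03). The call of Hexa was lost with any of 5 libraries left out, all but B16-F1R2 replicate 1, with values of 0.17 to 0.25 and adjusted p of 0.064 to 0.12, and also without the filter (0.15), without the trend (0.07) and with only the 4 libraries compared (0.063). With 2 libraries a line, single libraries were not checked as outliers.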

How the results depend on the processing

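Over the alternatives, the log2 differences of the 5 tested members and the named pathway genes gave 790 values with the same direction and call as reported, 35 with a call lost, 7 with a call gained and 4 with the sign turned. Between the variants, this tally holds only the named pathway genes called there, Hexa, Hapln4, Hs3st1 and Hpse. The turned signs were all of uncalled differences: Cd44 between B16-F1R2L and B16-F1 was -0.01 with median-ratio size factors and ranged from -0.04 to 0.06 with a library left out (below 0 without B16-F1R2L replicate 2 or B16-F1 replicate 2), and Prelp between the variants ranged from -0.00 (without B16-F1R2L replicate 2) to 0.41 with a library left out, and up to 1.05 over all alternatives. Hapln1 and Prelp kept their calls against B16-F1 under every alternative in which they were tested (Prelp falls below a filter of 5 FPKM). Without the filter and against B16-F1, 1 member was higher in B16-F1R2 and 1 lower in B16-F1R2L, and with the filter of 5 FPKM, 0 and 1 members were lower in B16-F1R2 and B16-F1R2L, since Prelp was then not tested. On rescaling, B16-F1R2L had 1 member below B16-F1. Between the variants, 2 members were called (1 of them, Hyal1, higher) with a pseudocount of 1, a filter of 5 FPKM, rescaling, only the 4 libraries or the replicate block, and 0 with a pseudocount of 0.01 or no filter. Of the other pathway genes between the variants, 6 were higher and 2 lower without the filter, 3 lower on rescaling and 5 higher with only the 4 libraries. Over all genes the same settings gave 381 higher and 253 lower, 489 lower, and 874 higher, in place of 1378 higher and 1190 lower. With a library left out, Hyal1 in B16-F1R2 and Hyal2 in B16-F1R2L lost their calls against B16-F1 in some of the fits. Between the variants Hapln1 lost its call in some of the fits and Hyal1 gained one in others. Fewer other pathway genes were called between the variants in each of these fits, and so were fewer of all tested genes. Where a fit without a library leaves a line with 1 library, that line is assumed to vary like the others. The replicate numbers do not pair the libraries: the correlation of same-numbered deviations was 0.0519, -0.102 and 0.0789 between lines, and the block changed no member's call other than that of Hyal1 between the variants (adjusted p = 0.028). Apart from what the construction of an alternative shows, the cause of these changes was not tested. Limits lie in the 2 libraries a line and in depth. Has3, Vcan and, in B16-F1, Hapln1 stand on few reads, and a value listed at 0 does not show that a gene was off.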

Other observations

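Several genes of the lists that were too low to be tested differed between B16-F1 and the variants without overlap. They were chosen after their values were seen and are given as values, with no test. Gpc4, a glypican gene, had 0.51 and 0.491 FPKM in B16-F1 and was listed at 0 in the other 4 libraries, and Chst7, a chondroitin 6-sulphotransferase gene, had 0.177 and 0.123 in B16-F1 and was also listed at 0 in the others. Chst11, a chondroitin 4-sulphotransferase gene, stood at 0.0896 and 0.067 FPKM in B16-F1, at 0.752 and 0.693 in B16-F1R2 and at 0.915 and 0.845 in B16-F1R2L. Col18a1, which encodes the core of a basement membrane collagen with heparan sulphate chains, stood at 0.0316 and 0 FPKM in B16-F1, at 0.682 and 0.502 in B16-F1R2 and at 0.613 and 0.548 in B16-F1R2L.

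Among tested genes outside the naming rule, some also differed between the variants. Those given here were chosen after their values were seen, and their calls were not followed over the alternatives. Others called in this contrast, such as Sdc1 and Chsy3, are not described. Sulf2, a heparan sulphate 6-O-endosulphatase gene, stood at 8.91 and 8.80 FPKM in B16-F1, at 5 and 5.14 in B16-F1R2 and at 3.73 and 3.30 in B16-F1R2L, and fell by 0.79 and 1.31 on the log2 scale against B16-F1 (limma adjusted p = 0.0005 and 5.9e-05). Chst12, another chondroitin 4-sulphotransferase gene, had 19.3 and 18.9, 12.9 and 12.8, and 9.41 and 8.58 FPKM in the same order, and fell by 0.51 on the log2 scale between the variants (limma adjusted p = 0.0067). Adamts1, a protease that cleaves versican, had 41.9 and 41.6, 45.0 and 49.8, and 33.9 and 31.5 FPKM, and fell by 0.53 on the log2 scale from B16-F1R2 to B16-F1R2L (limma adjusted p = 0.006). Extl1, an exostosin-like gene, stood at 11.8 and 12.6 FPKM in B16-F1, at 8.52 and 8.85 in B16-F1R2 and at 13.0 and 12.6 in B16-F1R2L, with a difference of 0.56 between the variants (limma adjusted p = 0.0051).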
